A study of Drosophila melanogaster and Drosophila arizonae and Drosophila mojavensis with 18 samples.

Results

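The response of *D*. *mojavensis* larvae to a low-protein/high-sugar (LPHS) diet was examined against the high-protein/low-sugar (HPLS) diet. The members are the 2 LPHS and the 2 HPLS libraries of this species, 4 of the 18 RNA-Seq libraries of a study of 3 *Drosophila* species, and they were taken by species and diet label alone. Larvae in the third instar, from isofemale strains of Baja California Sur, were kept for 24 h on diets that were isocaloric and differed in the ratio of yeast to sucrose, and the larvae of a vial were pooled. The libraries were compared within replicate number (1 or 2, as S1 and S2 in the labels). In the fit, the 2 libraries of the diet with equal protein and sugar (EPS) added to the estimate of the spread. They also took part in the choice of genes to test, which were 9775 with them and 9635 without. Whether a replicate number stands for a strain is given neither in the labels nor in the methods. The p-values set each change only against how unequal the changes between diets were across the replicate numbers of these pools. A constant difference between the replicate numbers is taken out by the fit. The labels give no staging of the larvae at harvest.

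*D*. *mojavensis* breeds in necrotic cactus tissue. Yeast supplies a larva with protein, sterols and nucleic acids, and sucrose supplies carbohydrate. The fat body of an insect larva takes the place of liver and adipose tissue: it turns sugar into glycogen, trehalose and triglyceride, and packs amino acids into storage proteins that are secreted into the hemolymph. In *D*. *melanogaster*, insulin and TOR signalling follow the supply of amino acids, and among the genes that respond to diet are *Thor*, a repressor of translation, and *sugarbabe*, a transcription factor induced by sugar.

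The 4 libraries held between 7270575 and 8907359 fragments in genes. Values below are normalized counts, the deposited values after TMM scaling between libraries, given in the order replicate 1, replicate 2. They are not divided by gene length, so levels of different genes cannot be compared. A log2 change is the mean over the replicates of LPHS minus HPLS after 1 is added to each value, which makes changes of scarce transcripts look smaller, and it is given with its standard error (SE). A gene is called where its Benjamini-Hochberg adjusted p over all genes tested was 0.05 or less (limma, replicate number as block). Larvae were sequenced whole, so fewer cells of a type and less RNA per cell cannot be told apart.

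Of 9775 genes tested, 543 were called between LPHS and HPLS larvae (5.55% of the genes tested), of which 251 were higher in LPHS (2.57%) and 292 were lower (2.99%). All 543 changed in the same direction in both replicates, as did 6093 of the 9775 genes (62.3%). The fit counts disagreement between the replicates as spread, so agreement among called genes follows from the selection and is a description. The higher genes had a median log2 change of 0.96 and the lower genes of -1.04, beside 0.0030 over all genes. A change of at least 1 was found for 114 of the higher and 158 of the lower genes. The libraries of the 2 diets did not overlap for 235 of the 251 higher genes and 277 of the 292 lower genes, beside 19.0% and 20.2% of all genes tested (39.1% in either direction). In the other called genes the diets overlapped, as in GI10883, a gene with no ortholog in the tables, at 39.5 and 379 in LPHS and 11 and 121 in HPLS larvae (log2 change 1.70 ± 0.31 SE, limma adjusted p = 0.0266). Called genes were chosen by their difference, so lack of overlap among them, here and in the lists below, is a description. The count of calls rested on the pairing by replicate number, since the same model without it called 2 genes (0.0205% of those tested), GI23785 and GI18936, and 1002 genes had an unadjusted p under 0.05 there. It also moved when HPLS replicate 1 was left out, to 1662 genes (826 higher and 836 lower), with 524 of the 543 genes among them.

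**Figure D1:**
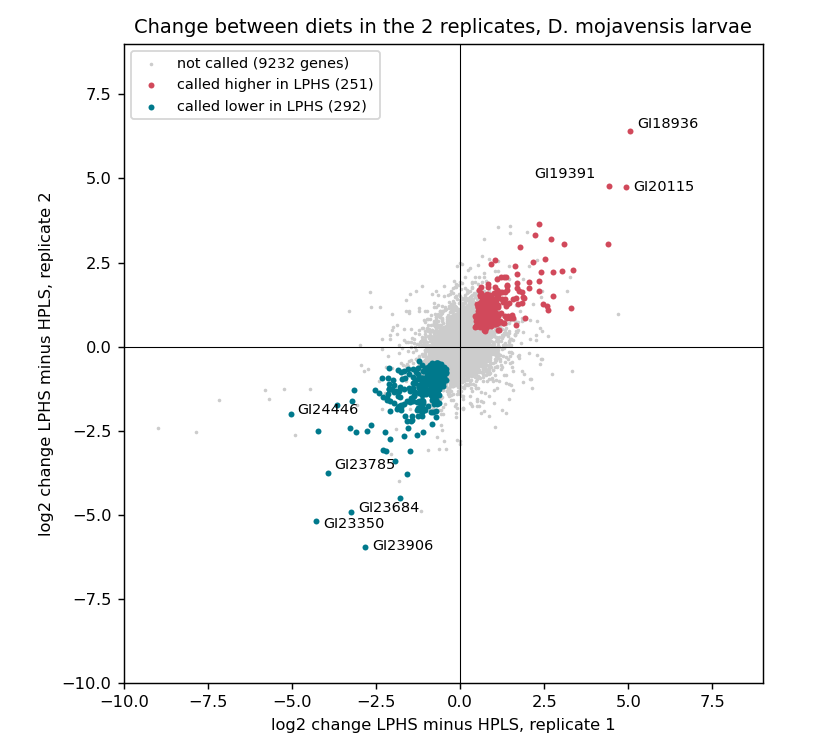
Log2 change between LPHS and HPLS larvae in replicate 1 (x axis) and in replicate 2 (y axis), with 1 point per gene for the 9775 genes tested. Red points are the 251 genes called higher in LPHS, blue points the 292 genes called lower, and grey points the genes that were not called. Called genes lie in the upper right and lower left, and GI24446, GI23684 and GI23906 lie away from the diagonal.

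Across the 9775 genes the changes of the 2 replicates had a Pearson r of 0.46 and a Spearman rho of 0.38, as a description over genes, which are not independent replicates. Genes called lower made up a larger share of the library than genes called higher. The lower genes took 9.34% and 9.55% of the fragments of the LPHS libraries, against 18.7% and 19.4% of the HPLS libraries, and the higher genes took 5.34% and 6.33% of the LPHS libraries, against 2.65% and 2.85% of the HPLS libraries. These genes were chosen by their difference, so the shares are a description. Counting error was small beside them, with Wilson 95% intervals of at most 0.0268 percentage points on either side of these and the other shares given here.

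Names, orthologs and protein domains came from the study's tables, which annotate 141 *D*. *mojavensis* genes that were reported as responding to diet in these same libraries, and *Adh1*. Their counts are therefore not independent evidence of a response, and this holds for every list of genes below. Of the 141 genes, 135 had enough fragments to be tested, 121 of them were called and 14 were not. The count of 121 takes no account of direction, and it includes GI20943, listed by the study as lower but called higher here. The 6 genes not tested were close to 0 outside 1 library: each held 13 to 58 fragments in HPLS replicate 2 and 0 to 4 in each of the other 5 libraries. Orthologs are those of *D*. *melanogaster*, and the roles given are known from that species. Where paralogs are similar enough in sequence, which was not compared here, fragments can be assigned to the wrong copy, so the separate values of *Adh1* and *Adh2*, the *Cyp6a2* orthologs, the *Lcp* orthologs and the actins carry that uncertainty.

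Among the 10 largest called decreases were 3 CHK kinase-like genes, 2 cytochrome P450s and a sarcosine dehydrogenase. Among the 10 largest called increases were 2 orthologs of immune-induced peptides and several genes for which no ortholog or domain was given. The largest increase was that of GI18936, which has no ortholog or domain in the tables. It had 1098 and 1046 normalized counts in LPHS larvae, against 31.9 and 11.3 in HPLS larvae (log2 change 5.73 ± 0.39 SE, limma adjusted p = 0.00204). Both LPHS libraries lay far above both HPLS libraries, and it is 1 of the 2 genes called without the pairing. GI17344, also without ortholog or domain, had 1228 and 3939 counts in LPHS and 243 and 313 in HPLS larvae (log2 change 2.99 ± 0.31 SE, limma adjusted p = 0.00503). The largest decrease was that of GI23350, the ortholog of the cytochrome P450 *Cyp304a1*, at 25.1 and 22.4 counts in LPHS larvae, against 507 and 856 in HPLS larvae (log2 change -4.74 ± 0.38 SE, limma adjusted p = 0.00256). The replicates of GI23350 were close to each other on LPHS. GI24784, a protein with a Kazal domain of protease inhibitors, was at 26 and 7.48 in LPHS and 229 and 48.5 in HPLS larvae (log2 change -2.82 ± 0.28 SE, limma adjusted p = 0.00467).

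**Figure D2:**
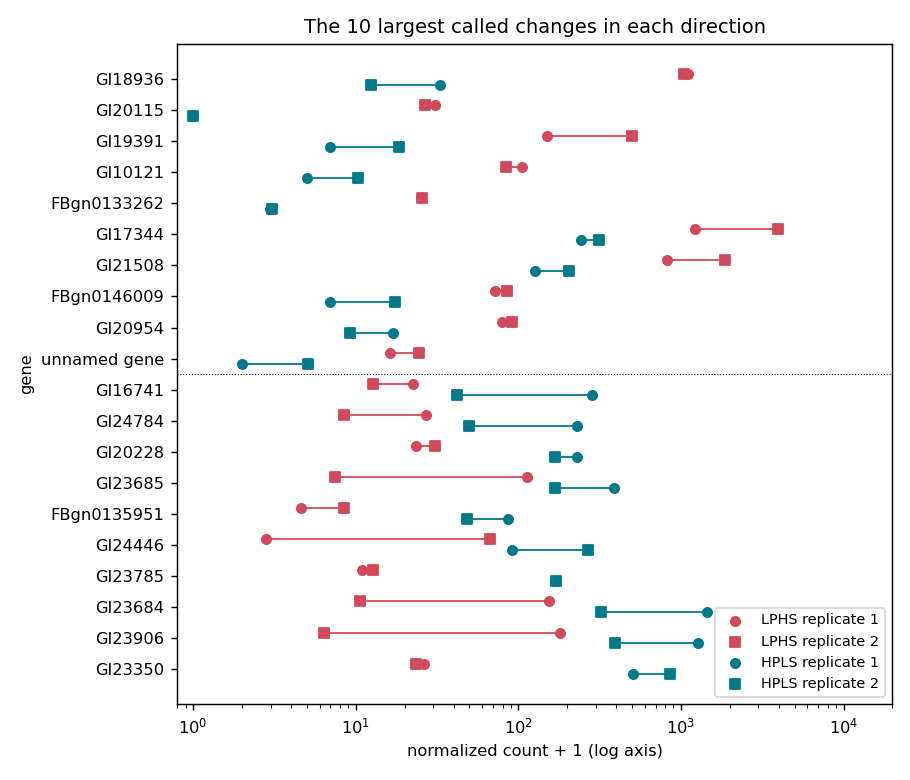
Normalized count + 1 (log axis) of the 10 genes with the largest called increase (above the dotted line) and decrease (below it) in LPHS. Red symbols are LPHS libraries and blue symbols HPLS libraries, circles are replicate 1 and squares replicate 2, and a line joins the replicates of a diet. The diets do not overlap in any of the 20 genes, which were chosen by their difference, so this is a description. GI23685, GI24446, GI23684 and GI23906 differ widely between the LPHS replicates.

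GI11069, the ortholog of the dehydrogenase *Pgd* of the pentose phosphate pathway, a source of NADPH, was higher on LPHS. It had 4841 and 6265 counts in LPHS larvae, against 1618 and 2348 in HPLS larvae (log2 change 1.50 ± 0.12 SE, limma adjusted p = 0.00256). The lowest LPHS library was above the highest HPLS library.

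Genes of sugar transport and use divided. Of 7 genes, 4 were called higher and 3 lower. The higher genes were 2 members of the sugar transporter family, a sorbitol dehydrogenase and a trehalose-phosphate phosphatase, and the lower genes were another transporter of the family, a hexokinase and a maltase. GI22936, an ortholog of the sorbitol dehydrogenases *Sodh-1* and *Sodh-2*, had 653 and 266 counts in LPHS and 112 and 43.3 in HPLS larvae (log2 change 2.56 ± 0.28 SE, limma adjusted p = 0.00574). GI23729, a trehalose 6-phosphate phosphatase and thus an enzyme of the synthesis of the blood sugar trehalose, had 863 and 1245 in LPHS and 326 and 389.9 in HPLS larvae (log2 change 1.54 ± 0.14 SE, limma adjusted p = 0.00354). The transporter GI20788 was at 906 and 1565 in LPHS and 244 and 576 in HPLS larvae (log2 change 1.66 ± 0.16 SE, limma adjusted p = 0.00438). In contrast, the transporter GI16741 was at 21.5 and 11.8 counts in LPHS, against 282 and 41.3 in HPLS larvae (log2 change -2.69 ± 0.45 SE, limma adjusted p = 0.0218). GI19942, the ortholog of the hexokinase *Hex-C*, which primes glucose for glycolysis, had 63.7 and 20.3 in LPHS and 175 and 95.9 in HPLS larvae (log2 change -1.82 ± 0.24 SE, limma adjusted p = 0.0103). Each of the 7 genes had non-overlapping diets, which is a description since all 7 were called.

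Both stearoyl-CoA desaturases of the list, which place a double bond into newly made fatty acids, were called higher. GI10484, the ortholog of *Desat2*, had 2292 and 3347 counts in LPHS and 372 and 1567 in HPLS larvae (log2 change 1.86 ± 0.31 SE, limma adjusted p = 0.0202), and GI24323 had 2243 and 2711 in LPHS and 925 and 1044 in HPLS larvae (log2 change 1.33 ± 0.12 SE, limma adjusted p = 0.00354). HPLS replicate 2 of GI10484 came nearest to the LPHS libraries. Also in the list of fatty acid synthesis, the fatty acid hydroxylase GI14601 was called lower, with 332 and 140.0 in LPHS and 1057 and 896 in HPLS larvae (log2 change -2.17 ± 0.27 SE, limma adjusted p = 0.00892), and so was the acyltransferase GI17060, so that 2 of 4 genes were higher and 2 lower.

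Of 3 genes listed under fat breakdown, 2 were called lower. GI19075, the ortholog of the acyl-CoA oxidase *Acox57D-d*, which starts beta-oxidation in peroxisomes, had 457 and 394 counts in LPHS and 1776 and 1003 in HPLS larvae (log2 change -1.65 ± 0.17 SE, limma adjusted p = 0.0048). GI17724, an enoyl-CoA isomerase of mitochondria, had 102 and 90.8 in LPHS and 263 and 233 in HPLS larvae (log2 change -1.35 ± 0.19 SE, limma adjusted p = 0.0131). GI19441, a dioxygenase of carnitine synthesis, did not pass the test, with 61.9 and 401 in LPHS and 20.9 and 339 in HPLS larvae (log2 change 0.88 ± 0.42 SE, limma adjusted p = 0.276), and its diets overlapped.

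Of 5 genes of lipid transport and esterases, 4 were called lower and 1 higher, with a median log2 change of -1.55. GI22476, an ortholog of the carboxylesterases *Est-6* and *Est-P*, had 1019 and 757 counts in LPHS and 3961 and 2407 in HPLS larvae (log2 change -1.81 ± 0.13 SE, limma adjusted p = 0.00233). GI24446, the ortholog of the sterol-binding *Npc2d*, had 1.8 and 66.3 in LPHS and 90.7 and 268 in HPLS larvae (log2 change -3.52 ± 0.60 SE, limma adjusted p = 0.0229). Its replicates differed on every diet, and LPHS replicate 1 held only 2 fragments. GI17847, the ortholog of *Mtp*, which loads lipid onto lipoproteins, had 1739.7 and 1437 in LPHS and 2838 and 5403 in HPLS larvae (log2 change -1.31 ± 0.25 SE, limma adjusted p = 0.0303), and its log2 change was -0.84 without LPHS replicate 2 and -0.87 without HPLS replicate 2. The gene against the direction of the list was GI10121, an ortholog of the esterase-family gene *CG4757*, with 105 and 83.4 counts in LPHS, against 3.99 and 9.28 in HPLS larvae (log2 change 3.72 ± 0.56 SE, limma adjusted p = 0.0154).

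Genes in the list of amino acid and glycine metabolism divided. The largest changes were in an enzyme of glycine formation, which was lower, and a phospho-lyase, which was higher. GI23785, the ortholog of sarcosine dehydrogenase (*Sardh*), which makes glycine from sarcosine, had 9.87 and 11.8 counts in LPHS larvae, against 166 and 170.2 in HPLS larvae (log2 change -3.85 ± 0.27 SE, limma adjusted p = 0.00233). The replicates lay close together on both diets, and this is the other gene called without the pairing. GI23443, an aminomethyltransferase of glycine cleavage, had 715 and 534 in LPHS and 1836 and 1481 in HPLS larvae (log2 change -1.41 ± 0.12 SE, limma adjusted p = 0.00354). Of the 5 genes in the list, 2 were called lower, 2 higher and 1 was not called. The higher genes were GI21508 and GI12353. GI21508, an ethanolamine-phosphate phospho-lyase that the study places under lipid metabolism, was at 822 and 1876 counts in LPHS and 126 and 205 in HPLS larvae (log2 change 2.94 ± 0.23 SE, limma adjusted p = 0.00256). GI12353, an argininosuccinate lyase, the last enzyme of arginine synthesis, was at 3209 and 6946 in LPHS and 1362 and 2586 in HPLS larvae (log2 change 1.33 ± 0.13 SE, limma adjusted p = 0.0048). GI23973, a D-amino-acid oxidase, had 18.9 and 36.3 in LPHS and 152 and 53.6 in HPLS larvae and did not pass the test (log2 change -1.75 ± 0.49 SE, limma adjusted p = 0.0888).

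The 3 genes listed under purine breakdown were all called lower, with a median log2 change of -1.68. *Xdh*, the ortholog of *rosy*, whose enzyme makes urate, had 94.3 and 47 counts in LPHS larvae, against 278 and 254 in HPLS larvae (log2 change -1.98 ± 0.25 SE, limma adjusted p = 0.00941). GI10152, the ortholog of *AOX2*, is in the list only by its annotation with the same enzyme family, and its change is the list median. A role of GI10152 in purine breakdown was not shown. It had 44 and 22.4 in LPHS and 141 and 75.3 in HPLS larvae (log2 change -1.68 ± 0.19 SE, limma adjusted p = 0.00584). GI12534, a purine nucleoside phosphorylase, had 736 and 569.6 in LPHS and 1805 and 1779 in HPLS larvae (log2 change -1.47 ± 0.14 SE, limma adjusted p = 0.00467). For *Xdh* and GI12534 the HPLS replicates were nearly equal, and the LPHS replicates were lower by unequal amounts.

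Of 4 genes with hexamerin-type domains in the list, 3 were called lower on LPHS, 2 of them hexamerin-type and 1 a prophenoloxidase, and the median log2 change was -1.70. The called gene with the most fragments was GI23074, the ortholog of the larval serum protein *Lsp1β*, a hexamerin made by the fat body and stored in the hemolymph. It had 150636 and 140044 counts in LPHS larvae, against 419551 and 441651 in HPLS larvae (log2 change -1.57 ± 0.14 SE, limma adjusted p = 0.00354). In terms of the whole library it took 1.91% and 1.80% of the fragments on LPHS, against 4.73% and 5.12% on HPLS. GI13762, another hexamerin-type gene, had 101 and 83.4 in LPHS and 415 and 203 in HPLS larvae (log2 change -1.65 ± 0.29 SE, limma adjusted p = 0.0249). GI19287, the ortholog of the prophenoloxidase *PPO1*, which shares the protein fold and is made by crystal cells, had 591 and 307 in LPHS and 1581 and 1297 in HPLS larvae (log2 change -1.75 ± 0.17 SE, limma adjusted p = 0.00467). GI11539, the ortholog of the fat body protein gene *Fbp1*, had 2.69 and 488 counts in LPHS and 533 and 1486 in HPLS larvae. The 2 diets did not overlap, but its log2 change was -7.18 in replicate 1 and -1.60 in replicate 2, and it did not pass the test (log2 change -4.39 ± 1.05 SE, limma adjusted p = 0.0578).

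All 3 genes in the list of nutrient signalling were called higher on LPHS, with a median log2 change of 2.01. GI14996, the first of 2 orthologs of *Thor*, the eIF4E-binding protein that holds back cap-dependent translation, had 636 and 1037 counts in LPHS larvae, against 119.6 and 224 in HPLS larvae (log2 change 2.30 ± 0.14 SE, limma adjusted p = 0.00169). The other ortholog, GI15007, had 75.4 and 103 in LPHS and 23.9 and 18.6 in HPLS larvae (log2 change 2.01 ± 0.29 SE, limma adjusted p = 0.0131). GI19975, the ortholog of *sugarbabe* (*sug*), had 644 and 525 in LPHS and 177 and 212 in HPLS larvae (log2 change 1.58 ± 0.18 SE, limma adjusted p = 0.00609). The diets did not overlap in any of these genes, which is a description since all 3 were called.

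On the EPS diet, levels of these genes were mostly intermediate. For GI19975 they were 177 and 212 on HPLS, 419 and 327 on EPS and 644 and 525 on LPHS. For GI14996 they were 119.6 and 224 on HPLS, 264 and 536 on EPS and 636 and 1037 on LPHS. Of the 543 called genes, 530 (97.6%) had an EPS mean between those of HPLS and LPHS, beside 5329 of the 9775 genes tested (54.5%). These genes were called on the difference between the outer diets, so this count is a description.

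**Figure D3:**
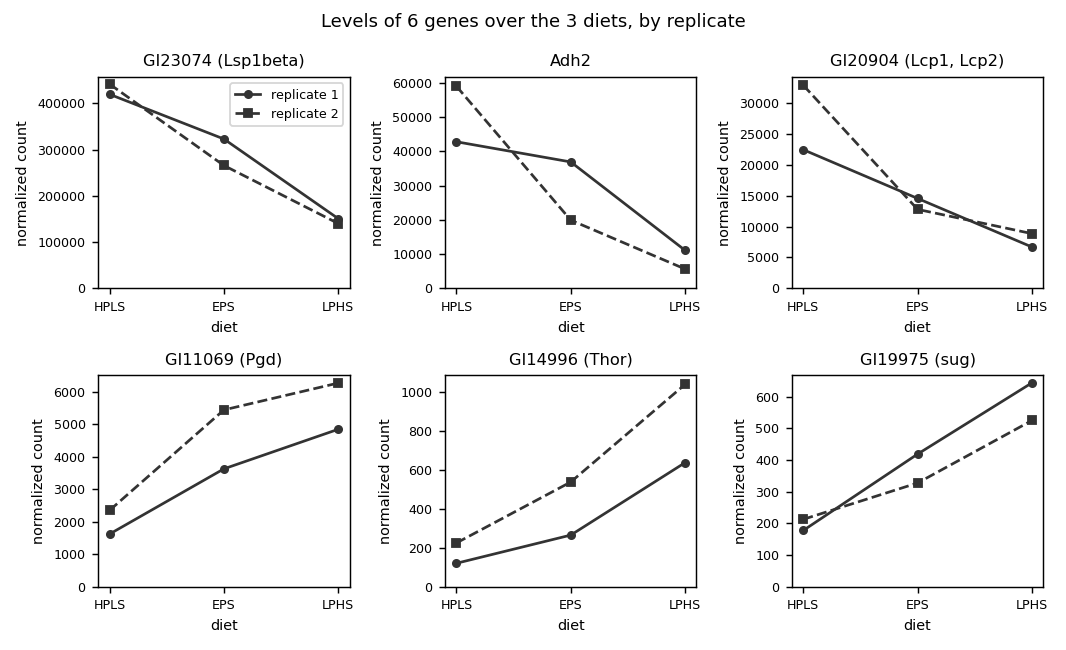
Normalized counts of 6 genes on HPLS, EPS and LPHS, in the order of rising sugar, with 1 line per replicate. The decreasing genes in the upper row are GI23074, *Adh2* and GI20904, and the increasing genes in the lower row are GI11069, GI14996 and GI19975. All 12 lines have their EPS value between the HPLS and LPHS values, and GI23074 was at 150636 and 140044 on LPHS, against 419551 and 441651 on HPLS.

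The alcohol dehydrogenases *Adh1* and *Adh2* were both called lower on LPHS, as was a short-chain dehydrogenase put in the same list, with a median log2 change of -1.90 over the 3 genes. The duplicate genes *Adh1* and *Adh2* encode the enzyme that oxidizes the ethanol of fermenting food, and in *D*. *mojavensis* they are expressed at different stages. *Adh2* had 11081 and 5619 counts in LPHS larvae, against 42804 and 59019 in HPLS larvae (log2 change -2.67 ± 0.32 SE, limma adjusted p = 0.00721). *Adh1* had 2191 and 3508 in LPHS and 11589 and 9219 in HPLS larvae (log2 change -1.90 ± 0.23 SE, limma adjusted p = 0.00761). Both paralogs fell in both replicates, as far as fragments of the pair were assigned to the right gene, with the smaller decrease of *Adh1* in replicate 2 and of *Adh2* in replicate 1. By RT-qPCR with primers made to tell the pair apart, the study reports a difference between these diets for *Adh2* and none for *Adh1*. What sets the counts of *Adh1* apart from that result was not tested. The short-chain dehydrogenase GI15562, the ortholog of *CG10962*, had 790.0 and 1213 in LPHS and 2369 and 5613 in HPLS larvae (log2 change -1.90 ± 0.19 SE, limma adjusted p = 0.00482).

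All 6 cytochrome P450 genes of the list, a family that oxidizes toxins, lipids and hormones, were called lower, with a median log2 change of -2.17 and a range of -4.74 to -1.42. After GI23350, the next largest change was that of GI20228, 1 of 2 orthologs of *Cyp6a2*, with 22.4 and 29.9 counts in LPHS and 228 and 166 in HPLS larvae (log2 change -2.86 ± 0.25 SE, limma adjusted p = 0.00354). GI24740, the ortholog of *Cyp6d5*, had 290.0 and 154 in LPHS and 1231 and 1049 in HPLS larvae (log2 change -2.42 ± 0.18 SE, limma adjusted p = 0.00233). The P450 genes had non-overlapping diets in every case, which is a description since all 6 were called. UDP-glycosyltransferases, which attach sugars to toxins and hormones, were divided in the list, with 2 of 4 called higher and 2 lower. GI20954, the ortholog of *CG17323*, had 78.1 and 90.8 counts in LPHS and 15.9 and 8.25 in HPLS larvae (log2 change 2.77 ± 0.33 SE, limma adjusted p = 0.00721). The other higher gene, GI20943, the ortholog of *CG17324*, had 136 and 199 in LPHS and 66.8 and 65 in HPLS larvae (log2 change 1.30 ± 0.22 SE, limma adjusted p = 0.0202). Of the lower genes, GI17523 had 129 and 66.3 in LPHS and 892 and 384 in HPLS larvae (log2 change -2.65 ± 0.14 SE, limma adjusted p = 0.00119).

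All 7 genes annotated with a CHK kinase-like domain in the tables were called lower, with a median log2 change of -1.84. Some relatives in the silkworm phosphorylate ecdysteroid hormones, but the roles of most members are unknown. For 3 of them the replicates differed strongly. GI23684 had 153 and 9.62 counts in LPHS and 1455 and 322 in HPLS larvae (log2 change -4.09 ± 0.41 SE, limma adjusted p = 0.0048). GI23906 had 179 and 5.34 in LPHS and 1264 and 393 in HPLS larvae (log2 change -4.39 ± 0.66 SE, limma adjusted p = 0.0155), and GI23685 had 112 and 6.41 in LPHS and 388 and 166 in HPLS larvae (log2 change -3.14 ± 0.59 SE, limma adjusted p = 0.0284). In each of the 3 genes replicate 2 was the lower replicate on either diet, and most so on LPHS. Without HPLS replicate 2 the log2 change was -2.89 for GI23906 and -1.84 for GI23685, both still called. GI22573 lost its call in that setting, at -1.07 (limma adjusted p = 0.0806), beside -1.38 with all libraries. GI23912 was closer between replicates, at 110.4 and 83.4 in LPHS and 305 and 394 in HPLS larvae (log2 change -1.84 ± 0.20 SE, limma adjusted p = 0.00574).

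All 9 cuticle protein genes annotated in the tables were called lower on LPHS, with a median log2 change of -1.68. They encode the proteins that, with chitin, form the exoskeleton. GI20904, 1 of 3 orthologs of the larval cuticle protein genes *Lcp1* and *Lcp2*, had 6686 and 8855 counts in LPHS and 22454 and 32904 in HPLS larvae (log2 change -1.82 ± 0.18 SE, limma adjusted p = 0.0048). GI19511 had 8377 and 9079 in LPHS and 29197 and 25814 in HPLS larvae (log2 change -1.65 ± 0.18 SE, limma adjusted p = 0.00574), and GI19059, the ortholog of *Cpr49Af*, had 423 and 372 in LPHS and 1317 and 1572 in HPLS larvae (log2 change -1.86 ± 0.19 SE, limma adjusted p = 0.00497). The 9 genes together took 0.417% and 0.655% of the fragments on LPHS, against 1.28% and 1.65% on HPLS. The largest change in the group was that of GI12694, the ortholog of *Acp65Aa*, at 24.2 and 18.2 in LPHS and 74.7 and 264 in HPLS larvae (log2 change -2.69 ± 0.55 SE, limma adjusted p = 0.0369). It rested on HPLS replicate 2, without which it was -1.50 and still called.

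Among genes of chitin binding and chitinases, 2 of 4 were called higher, 1 lower and 1 was not called. GI24570, a chitin-binding protein, had 1216 and 1366 counts in LPHS and 296 and 357 in HPLS larvae (log2 change 1.98 ± 0.13 SE, limma adjusted p = 0.00169). GI17258, the ortholog of the chitinase-like growth factor *Idgf1*, had 592 and 441 in LPHS and 153 and 245 in HPLS larvae (log2 change 1.39 ± 0.24 SE, limma adjusted p = 0.0233). The lower gene, GI12405, had 34.1 and 53.4 in LPHS and 75.7 and 191 in HPLS larvae (log2 change -1.47 ± 0.22 SE, limma adjusted p = 0.0145), so that the direction was not shared over the list. GI18891, the ortholog of the chitinase *Cht4*, had 893 and 662 in LPHS and 286 and 394 in HPLS larvae and did not pass the test (log2 change 1.19 ± 0.30 SE, limma adjusted p = 0.0653).

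Of 5 genes put in the list of immune-induced proteins, 4 were called higher on LPHS, with a median log2 change of 1.89. GI19391, the ortholog of *IM23*, a secreted peptide of the response to infection, had 148 and 502 counts in LPHS larvae, against 5.98 and 17.5 in HPLS larvae (log2 change 4.59 ± 0.18 SE, limma adjusted p = 0.000234). This was the smallest adjusted p of all genes tested. GI20115, the ortholog of *IM2* in the same class of peptides, had 29.6 and 25.6 in LPHS larvae and was at 0 in both HPLS libraries (limma adjusted p = 0.00516). With 3 fragments per library as the limit that a count of 0 allows, it was at least 9.09-fold higher in LPHS. GI16640 is annotated only as a lysozyme-like glycoside hydrolase, not as immune-induced, and its change is the list median. It had 539.5 and 938 in LPHS and 131 and 279 in HPLS larvae (log2 change 1.89 ± 0.20 SE, limma adjusted p = 0.00563). GI19390 had 251 and 213 in LPHS and 123 and 35.1 in HPLS larvae (log2 change 1.80 ± 0.33 SE, limma adjusted p = 0.0261), and 1.15 without HPLS replicate 2, where it was still called. GI20837, the ortholog of the antibacterial attacins *AttA* and *AttB*, had 697 and 231 in LPHS and 342 and 172 in HPLS larvae, where the diets overlapped, and it did not pass the test (log2 change 0.72 ± 0.57 SE, limma adjusted p = 0.508).

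Of 6 peptidase genes in the list, 4 were called higher, 1 lower and 1 was not called. GI21250, the ortholog of the trypsin gene *CG8299*, had 771 and 939 counts in LPHS and 226 and 119 in HPLS larvae (log2 change 2.37 ± 0.26 SE, limma adjusted p = 0.00576). GI24439, a chymotrypsin-type peptidase, had 3409 and 3599.5 in LPHS and 1317 and 1545 in HPLS larvae (log2 change 1.30 ± 0.12 SE, limma adjusted p = 0.00354). Replicates of GI24439 were close to each other on both diets. The lower member was GI17503, a metallopeptidase with immunoglobulin domains, at 356 and 209 in LPHS and 827 and 664 in HPLS larvae (log2 change -1.44 ± 0.16 SE, limma adjusted p = 0.00574), and GI22607, an astacin, had 292 and 387 in LPHS and 142 and 135 in HPLS larvae and did not pass the test (log2 change 1.27 ± 0.30 SE, limma adjusted p = 0.0574).

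Actin genes moved in opposite directions. GI19595, the ortholog of the cytoplasmic actin *Act42A*, had 1969.6 and 1829 counts in LPHS and 926 and 649 in HPLS larvae (log2 change 1.29 ± 0.17 SE, limma adjusted p = 0.00964). GI24339, related to the muscle actins *Act87E*, *Act57B* and *Act88F*, had 2058 and 828 in LPHS and 7441 and 2876 in HPLS larvae (log2 change -1.82 ± 0.16 SE, limma adjusted p = 0.00354). Replicate 1 was above replicate 2 on both diets for GI24339. Of the genes of protein folding and translocation, 2 of 3 were called lower. GI23963, the ortholog of calreticulin (*Crc*), a chaperone of the endoplasmic reticulum, had 5309.9 and 2996 in LPHS and 11770.5 and 9923 in HPLS larvae (log2 change -1.44 ± 0.17 SE, limma adjusted p = 0.00653), and GI20777, the ortholog of the translocon subunit *Sec61β*, had 796 and 467 in LPHS and 1726 and 1511 in HPLS larvae (log2 change -1.40 ± 0.17 SE, limma adjusted p = 0.00685). GI24163, the ortholog of the heat shock gene *Hsp68*, had 865 and 113 in LPHS and 248 and 104 in HPLS larvae, with overlapping diets, and did not pass the test (log2 change 0.96 ± 0.35 SE, limma adjusted p = 0.17).

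**Figure D4:**
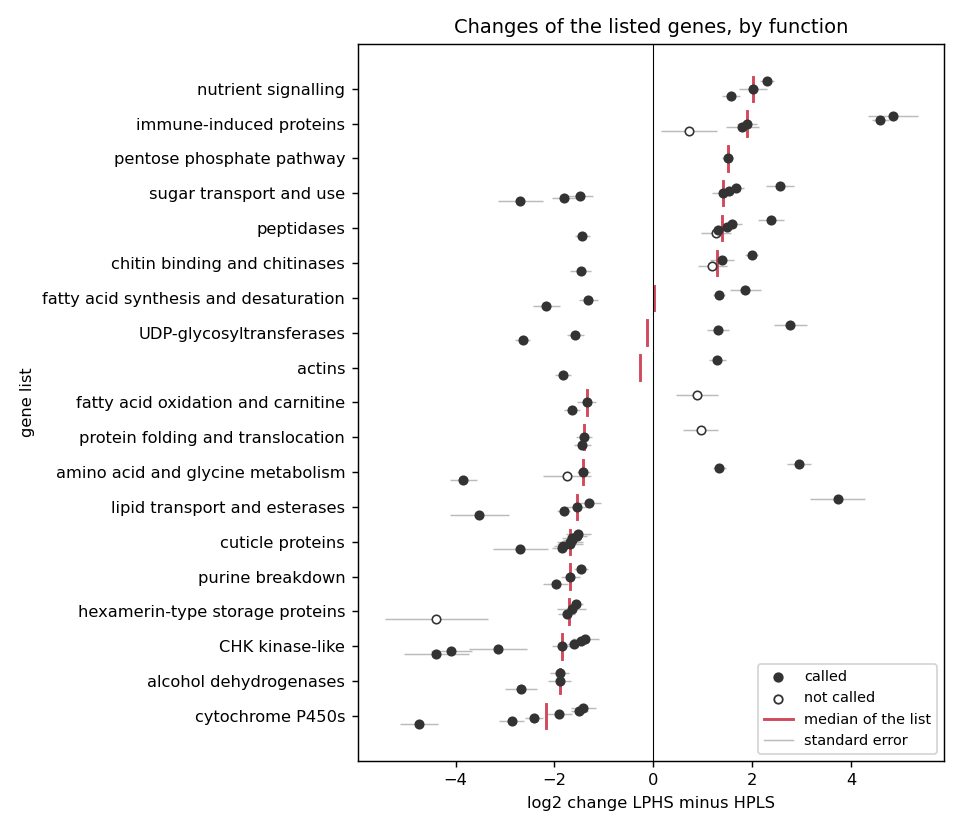
Log2 change between LPHS and HPLS larvae (x axis) of the genes in 19 lists by function (y axis), with 1 point per gene and its standard error as a grey line. Filled points are called genes, open points are genes that were not called, and red bars are list medians. The listed cuticle proteins, P450s and CHK kinase-like genes lie below 0, and sugar transport, UDP-glycosyltransferases and actins lie on both sides.

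The genes that could be paired with tissue markers differed between the diets in both directions, which is a description. Of 14 marker symbols, 8 genes of the deposited table could be paired with one through the tables, and the markers *Lsp2*, *Mhc*, the *Jon* proteases and the yolk proteins could not be checked. None of the 8 genes was at 0 in any of the 4 libraries. The summed level of the paired fat body markers was 150639 and 140532 in LPHS larvae, against 420084 and 443137 in HPLS larvae, and nearly all of it came from GI23074. For the larval epidermis (*Lcp* orthologs) the sums were 16825 and 38239.8 in LPHS, against 66095 and 103113 in HPLS larvae. Markers of muscle (GI24339) and crystal cells (GI19287) were lower too, and the midgut marker (GI21250) was higher, with the values given above. Pairing was possible only through the annotation, and every paired gene is among those annotated as responding to diet in these same libraries. That the paired genes differed between the diets was therefore set by how they were found. The markers of muscle, crystal cells and midgut were 1 gene each, so they cannot stand for a tissue. The part of tissue makeup in the results was not tested.

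Outside the lists, other annotated genes were picked after their values were seen. Transporters went both ways: GI14799, an amino acid transporter, had 79.9 and 141 counts in LPHS and 14.9 and 36.1 in HPLS larvae (log2 change 2.14 ± 0.20 SE, limma adjusted p = 0.00446), and GI24869, the ortholog of the copper importer *Ctr1B*, had 652 and 439 in LPHS and 2816 and 951 in HPLS larvae (log2 change -1.61 ± 0.25 SE, limma adjusted p = 0.0174). GI19616, the ortholog of the organic anion transporter *Oatp58Da*, had 668 and 388 in LPHS and 1462 and 1178 in HPLS larvae (log2 change -1.36 ± 0.15 SE, limma adjusted p = 0.00574). GI15086, the ortholog of the growth factor *Pvf1*, had 489 and 284 counts in LPHS and 135 and 101 in HPLS larvae (log2 change 1.67 ± 0.19 SE, limma adjusted p = 0.00609), and GI15577, the ortholog of the TNF receptor *wengen* (*wgn*), had 117 and 255 in LPHS and 53.8 and 78.4 in HPLS larvae (log2 change 1.40 ± 0.19 SE, limma adjusted p = 0.0113). A pair of genes of the *vanin-like* family, whose human relatives release pantothenate, the vitamin of coenzyme A, was lower: GI16171 had 206 and 176 in LPHS and 751 and 641 in HPLS larvae (log2 change -1.86 ± 0.14 SE, limma adjusted p = 0.00233), and GI16172 had 121 and 232 in LPHS and 412 and 777 in HPLS larvae (log2 change -1.75 ± 0.13 SE, limma adjusted p = 0.00233). GI18126 and GI17517, of the family of acyl-CoA N-acyltransferases, were lower as well. GI18126 had 618 and 706 counts in LPHS larvae, against 3923 and 3582 in HPLS larvae (log2 change -2.50 ± 0.23 SE, limma adjusted p = 0.00402).

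Some annotated genes had large mean changes that differed in size between the replicates and did not pass the test. GI14785, without ortholog or domain, had 0.898 and 282 counts in LPHS and 441 and 1646 in HPLS larvae (log2 change -5.20 ± 1.31 SE, limma adjusted p = 0.0663). GI17572 was listed at 0 and 297 in LPHS and 504 and 1607 in HPLS larvae (limma adjusted p = 0.113). In both genes LPHS replicate 1 was under 1 count and the other 3 libraries were well above it. The 18S ribosomal RNA, which poly(A) selection should largely remove, had 6205 and 6890.2 in LPHS and 9206 and 34709.6 in HPLS larvae and did not pass the test (log2 change -1.45 ± 0.35 SE, limma adjusted p = 0.0601). Its highest value was in HPLS replicate 2, and the part of this library in the results was not tested beyond leaving it out, which gave 555 calls, 402 of them among the 543.

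Most called genes were absent from the tables. Of the 543 genes, 122 were annotated (47 higher and 75 lower) and 421 were not (204 higher and 217 lower), and the names of these 421 are not given in the files. They had a median log2 change of 0.88 in the higher and -0.91 in the lower genes, beside 1.70 and -1.65 in the annotated genes, and 271 of the 421 had a change under 1. Every annotated called gene changed by more than 1. The median normalized count, as a mean of both diets, was 610.3 for the higher and 682 for the lower genes without annotation, against 389.6 and 521 for the annotated genes.

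Even so, 67 higher and 83 lower genes without annotation changed by at least 1. The largest increase among them was that of FBgn0133262, with 24.2 and 24.6 counts in LPHS and 1.99 and 2.06 in HPLS larvae (log2 change 3.07 ± 0.48 SE, limma adjusted p = 0.0174). It had 2 fragments in each HPLS library, and over both replicates the ratio of fragments of LPHS to HPLS was 12.0 (95% exact counting interval 4.42 to 45.9). FBgn0146009 had 70.9 and 84.4 in LPHS and 5.98 and 16.5 in HPLS larvae (log2 change 2.83 ± 0.34 SE, limma adjusted p = 0.00756). The largest decreases were those of FBgn0135951, at 3.59 and 7.48 counts in LPHS and 85.7 and 47.4 in HPLS larvae (log2 change -3.38 ± 0.45 SE, limma adjusted p = 0.0102), and FBgn0135749, at 83.5 and 5.34 in LPHS and 410.5 and 52.6 in HPLS larvae (log2 change -2.68 ± 0.29 SE, limma adjusted p = 0.00547). For FBgn0135749 replicate 1 was above replicate 2 on both diets, so the highest LPHS library was above the lowest HPLS library. The 10 largest increases without annotation ran from 1.62 to 3.07 and the 10 largest decreases from -3.38 to -1.85.

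Some of the genes without annotation held many fragments. With a mean over both diets of at least 10000 normalized counts, 17 of them were called, 5 higher and 12 lower in LPHS. The one with the highest mean had 41285 and 149806 counts in LPHS larvae, against 180434 and 233318 in HPLS larvae (log2 change -1.38 ± 0.30 SE, limma adjusted p = 0.0460). Its LPHS replicates were far apart, with replicate 1 the lower. The largest increase among the 17 was that of a gene with 21265 and 37003 counts in LPHS, against 12218 and 12588 in HPLS larvae (log2 change 1.18 ± 0.20 SE, limma adjusted p = 0.0225).

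**Figure D5:**
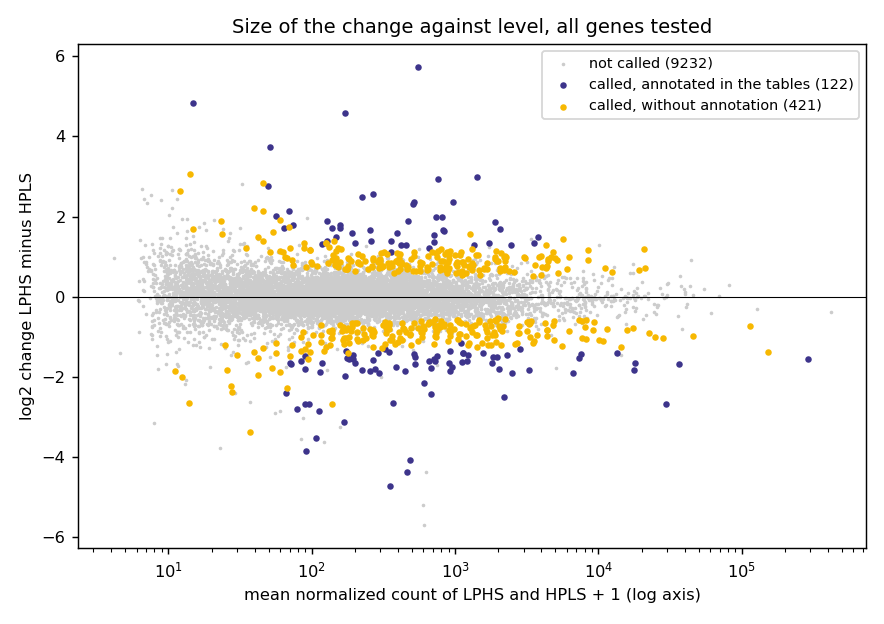
Log2 change between LPHS and HPLS larvae (y axis) against the mean normalized count of the 2 diets + 1 (x axis, log scale), with 1 point per gene tested. Purple points are the 122 called genes with annotation, yellow points the 421 called genes without it, and grey points the genes that were not called. Yellow points lie mostly nearer to 0 than purple ones, with medians of 0.88 and -0.91 against 1.70 and -1.65, and the rightmost purple point is GI23074.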

How the data were processed

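Pools of larvae were sequenced from poly(A) RNA as read pairs. The authors mapped the pairs with TopHat2 and Bowtie2 to the FlyBase genome of *D*. *mojavensis*, counted fragments per gene with Cuffdiff at default settings, and deposited 1 signal value per gene and library. Each deposited signal value was a fragment count multiplied by 1 step per library. Division by the step gave whole numbers within 0.01 steps for 100.0% of the values above 0, and these recovered fragments served the count tests. The table held 15180 genes, of which 2412 were at 0 in all 6 libraries, and filterByExpr of edgeR (minimum count 10, by diet) kept 9775. The total was between 6819502 and 9910492 fragments over the 6 libraries, so counting limits genes with few fragments and the spread between 2 libraries per diet limits the others.

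Values were scaled by TMM, a pseudocount of 1 was added, and log2 values were fitted with limma 3.58.1 (variance trend, diet and replicate number as terms, 2 residual degrees of freedom). Pairing came from the S number in the labels. Deviations from the diet means were correlated across genes between libraries of the same number, at 0.51 (LPHS and HPLS), 0.57 (EPS and HPLS) and 0.70 (LPHS and EPS). The count test, the quasi-likelihood test of edgeR 4.0.16 on recovered fragments with the same terms, called 549 genes. DESeq2 1.42.0, other scalings, pseudocounts and filters, the fit without EPS and leaving out each LPHS or HPLS library were alternatives. Tests were checked on simulated data with known changes. R was 4.3.3, and tables and figures were made in Python 3.11.15 (pandas 2.3.3, scipy 1.17.1, matplotlib 3.10.9).

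Members and gene lists were chosen with earlier results of these data known. Genes named with values are the 10 largest called changes in each direction with both replicates in the same direction, and beside them up to 4 further genes per list, *Adh1*, *Adh2* and both *Thor* orthologs. The genes shown of a list are not always those with the smallest adjusted p. Left out were the CHK kinase-like gene GI23260 (limma adjusted p = 0.00319) and the esterase GI24124 (limma adjusted p = 0.0145). Of the 10 largest changes each way without annotation, identifiers are printed for 2 each way. Other genes given by name were picked after their values were seen. Replicates of a diet differed well beyond sampling noise, with a mean chi-square per gene of 46.4 (LPHS), 37.0 (HPLS) and 42.9 (EPS). The tables of *D*. *melanogaster* and *D*. *arizonae* were normalized separately and were not used here. Sequences and gene families beyond the study's annotation were not analysed here. 1 gene of the lists is not reported here.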

Additional observations from a re-analysis of the deposited data

How the results depend on the processing

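Without the replicate block, limma called 2 genes in LPHS-HPLS, 1 higher and 1 lower, both of them also called with it, against 543, 251 and 292 with the block. The log2 changes of the 107 named genes tested are the same there by design, since every diet has both replicate numbers. Of the named genes called with the block, 95 were not called without it. The other settings, all with the block, kept the count within 1.5 times: the quasi-likelihood test of edgeR called 549 genes (523 shared with the main fit), DESeq2 567 (474 shared), the LPHS and HPLS libraries alone 717 (503 shared), and the scalings, pseudocounts and filters between 517 and 551. Leaving out 1 library moved the count of called genes between 433 and 1662, of higher genes between 179 and 826 and of lower genes between 254 and 836. The highest counts came without HPLS replicate 1 and the lowest without LPHS replicate 2. With a library left out, its diet rests on 1 sample, which is assumed to vary like the others. The only named gene to turn direction was GI20837, at -0.15 without LPHS replicate 1 and 1.59 without LPHS replicate 2. It was not called with all libraries, at 0.72. Of 97 named genes called, 6 moved by more than 1.5 times without 1 library: GI12694, GI17847, GI19390, GI22573, GI23685 and GI23906. GI22573 moved to -0.83 without LPHS replicate 2 and was not called without HPLS replicate 2 (-1.07, limma adjusted p = 0.0806), beside -1.38 with all libraries. With the block kept, the only other named gene to lose its call was 1 gene without annotation among the 10 largest increases, plotted as unnamed, with pseudocount 0.5, with DESeq2 and without LPHS replicate 1, LPHS replicate 2 or HPLS replicate 2 (log2 change 2.09 to 3.20, adjusted p between 0.0524 and 0.269 by limma or DESeq2). Calls were also gained with the block kept, by named genes that did not pass the test in the main fit. These were 9 genes with the LPHS and HPLS libraries alone, 4 with DESeq2 and 2 with pseudocount 5. For most of the named genes not called, that result therefore holds for the main fit and not for every setting. The causes were not tested.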
